A study of Caenorhabditis elegans with 6 samples.

Results

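The genes of the muscle thick filament and of the titin-like proteins that sit beside it were examined in RNA from whole *C. elegans* larvae of a *folr-1* mutant and of the wild type. The members are 8 genes of the 46661 in the count table, found by name: the titin-like genes *ttn-1* (W06H8.8), *unc-22* (ZK617.1) and *unc-89* (C09D1.1), the myosin heavy chain genes *unc-54* (F11C3.3), *myo-3* (K12F2.1), *myo-1* (R06C7.10) and *myo-2* (T18D3.4), and the paramyosin gene *unc-15* (F07A5.7). All 8 passed the filter on low counts, as did 15432 genes in all. The group was chosen by its difference between the strains in these same libraries, so that difference is given below as a description, with no test for the members.

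The N2 group is the wild-type strain, and the *folr-1(syb4116)* group carries an allele, made by CRISPR/Cas9 genome editing, with a premature stop codon in the gene of the folate receptor FOLR-1. Both strains were synchronized by bleaching, fed HT115 bacteria that carried the empty RNAi vector, kept at 20 °C, and collected at the L4 larval stage, with 3 biological replicates of each. The comparison addresses how the loss of FOLR-1 alters gene expression. A single allele was sequenced, so effects of the allele and of any other difference between the strains cannot be told apart.

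The thick filament is the myosin-bearing rod of the sarcomere, the contractile unit of muscle. In the body wall muscle of *C. elegans*, myosin heavy chain A (*myo-3*) occupies the middle of the rod and heavy chain B (*unc-54*) its arms, both around a core that holds paramyosin (*unc-15*). Heavy chains C and D (*myo-2* and *myo-1*) form the filaments of the pharynx, the muscular feeding organ. Twitchin (*unc-22*), the obscurin relative UNC-89 and the worm's own titin (*ttn-1*) are giant proteins built of repeated immunoglobulin and fibronectin domains with a kinase domain, and they are known for holding the filaments in register and for regulating contraction. Their transcripts are among the longest of the worm.

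Transcript length therefore stands beside each gene. The length that the authors' FPKM values imply (FPKM, fragments scaled to gene length and library size) was 56600 bases for *ttn-1*, more than for any other tested gene. It was 25808 bases for *unc-89* and 22901 bases for *unc-22*. Of the tested genes, 3 were longer than *unc-89* and 8 were longer than *unc-22*. The 4 heavy chain genes were of nearly equal length, from 6105 bases for *myo-3* to 6504 bases for *myo-1*, and *unc-15* was the shortest member at 3424 bases, with 1006 tested genes above it.

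In the WBcel235 annotation, *ttn-1* lies on the reverse strand of chromosome V from 6120909 to 6202632, with 65 merged exon blocks and 15 annotated transcripts of 8602 to 45903 bases. The gene *unc-22* lies on the reverse strand of chromosome IV from 11972697 to 12011007, with 37 exon blocks and 9 transcripts of 19308 to 21601 bases. On the forward strand of chromosome I, *unc-89* spans 4035702 to 4090885, with 51 exon blocks and 16 transcripts of 4734 to 24703 bases. For these 3 genes, the length implied by the FPKM values exceeds that of any single annotated transcript and lies near the merged exons of this annotation, 56044 bases for *ttn-1*, 25942 for *unc-89* and 23368 for *unc-22*. The scale of the implied lengths was itself set on the merged exons of all genes.

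The heavy chain genes are compact and have 1 annotated transcript each. On chromosome I, *unc-54* spans 14855901 to 14863482 and *myo-1* spans 7258946 to 7267057, both on the reverse strand, with 9 exon blocks each. The gene *myo-2* lies on the forward strand of chromosome X from 12468061 to 12475348, with 12 exon blocks, and *myo-3* on the reverse strand of chromosome V from 12226817 to 12234343, with 7. The paramyosin gene lies on the reverse strand of chromosome I from 7376604 to 7383197 and has 3 transcripts of 1662 to 3424 bases. The counting strand was not given in the sources used here, so reads of a gene and of an antisense neighbour cannot be told apart where their exons overlap. Only *unc-22* shared exon bases with annotated neighbours, 385 bases with 4 genes, of which ZK829.9 on the opposite strand (4768 counts over all libraries) shared 93.

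The 6 libraries held 21646678 to 25946226 counts. The targeted gene *folr-1* (C17G1.1) had 32, 37 and 59 counts in N2 and 14, 11 and 7 in the mutant, a log2 fold change of -2.02 ± 0.31 (SE). Over all tested genes, 512 were lower in the mutant (3.32%) and 561 were higher (3.64%) in edgeR's quasi-likelihood test with an adjusted p threshold of 0.05. Values below are CPM (counts scaled to library size with TMM factors) unless stated, each over the 3 libraries of a strain, and fold changes are mutant over N2 on the log2 scale with the standard error (SE) of the fit.

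In N2, the levels per length covered a wide range. The FPKM was 892 ± 8.12 (SD, n = 3) for *unc-54* and 668 ± 7.12 for *unc-15*. It was 80.0 ± 4.19 for *myo-3*, 53.1 ± 0.706 for *myo-2* and 38.1 ± 0.810 for *myo-1*. The body wall heavy chain B and paramyosin thus stood far above the rest, and *unc-54* was the fifth most abundant of all tested genes by mean CPM. The titin-like genes were lowest, with an FPKM of 28.5 ± 0.603 for *unc-22*, 21.8 ± 0.652 for *unc-89* and 4.04 ± 0.0592 for *ttn-1*.

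The order of the 8 FPKM levels was the same in both strains, and within each strain no library of a gene overlapped with a library of its neighbour in that order. The widest steps in N2 were from *unc-15* to *myo-3* (8.35-fold) and from *unc-89* to *ttn-1* (5.39-fold), and the other steps were between 1.31-fold and 1.51-fold. The level of *ttn-1* depends on the length taken for it: with its longest annotated transcript in place of the length in the files, its N2 level was 4.98 on the FPKM scale, still the lowest of the 8.

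Of the titin-like genes, *unc-22* differed most between the strains. It had 662, 640 and 665 CPM in N2 and 515, 506 and 484 CPM in the mutant, a mean of 502 ± 15.98 in the mutant against 656 ± 13.7 in N2 (SD, n = 3). Every mutant library lay below every N2 library, with the highest mutant library 19.5% under the lowest N2 library. Its log2 fold change was -0.39 ± 0.037, which is 23.4% less transcript in the mutant. Twitchin, its product, is known for restraining contraction, and worms that lack it twitch.

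The gene *unc-89*, whose product sits at the M-line in the middle of the thick filaments, had 578, 565 and 546 CPM in N2 and 427, 462 and 446 CPM in the mutant. The groups did not overlap here either, and the means were 563 ± 16.2 and 445 ± 17.2. The log2 fold change was -0.34 ± 0.039 (20.98% less). The mutant replicate 1 was its lowest library, whereas for the other 7 members the lowest library was mutant replicate 3.

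The longest gene, *ttn-1*, had 225, 231 and 231 CPM in N2 and 194, 185 and 182 CPM in the mutant, from 4915, 5154, 5841, 4958, 4458 and 3918 counts. The groups were separated by 13.8% of the lowest N2 library. The means were 229 ± 3.64 and 187 ± 6.13, and the log2 fold change was -0.29 ± 0.039 (18.4% less). Among the titin-like genes, *unc-22* was further from 0 than *ttn-1*. The values of *ttn-1* and *unc-89* (-0.34 ± 0.039) overlapped within their standard errors.

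**Figure D1:**
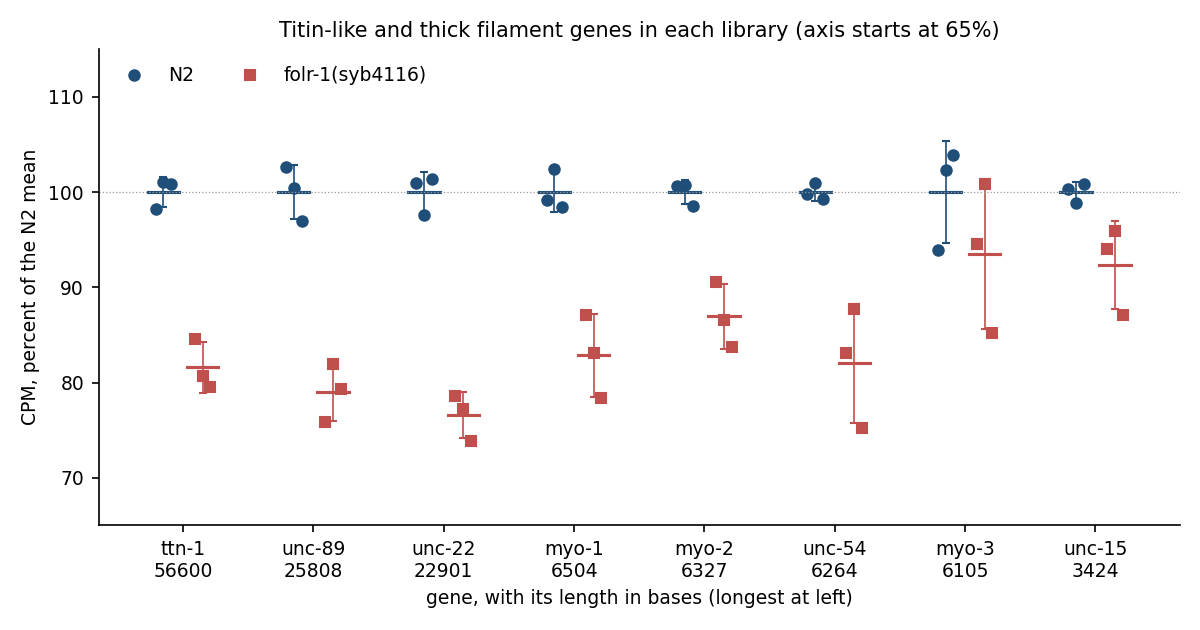
CPM of each of the 8 genes in each library as a percent of the gene's N2 mean, on an axis that does not start at 0, with genes ordered by length and with the mean and SD of the 3 libraries of each strain as bars. The mutant points lie below the N2 points for every gene but *myo-3*, whose points overlap.

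Among the heavy chains of the body wall, the 2 partners of the same filament differed in how they compared. The major chain *unc-54* had 5592, 5663 and 5565 CPM in N2 and 4658, 4916 and 4218 CPM in the mutant, which did not overlap. Its means were 5607 ± 50.6 and 4598 ± 353, and its log2 fold change was -0.29 ± 0.043. The 3 mutant libraries were spread far more widely than the 3 N2 libraries.

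The minor chain *myo-3* had 460, 501 and 509 CPM in N2 and 463, 494 and 417 CPM in the mutant. These groups overlapped, and only mutant replicate 3 lay below the lowest N2 library. The log2 fold change was -0.10 ± 0.054, and it moved between -0.16 and -0.03 on leaving out single libraries, and *myo-3* was the only member whose strains overlapped.

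The pharyngeal heavy chains were lower in the mutant without overlap. The gene *myo-1* had 247, 255 and 245 CPM in N2 and 217, 207 and 195 CPM in the mutant, with a log2 fold change of -0.27 ± 0.042 (17.1% less). The gene *myo-2* had 339, 340 and 332 CPM in N2 and 305, 292 and 282 CPM in the mutant, with a log2 fold change of -0.20 ± 0.039 (13.0% less). Heavy chain genes of both kinds of muscle were thus among those lower in the mutant. In RNA of whole animals, a smaller share of muscle in the RNA and less RNA of these genes per muscle cell cannot be told apart.

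Paramyosin, a rod protein without a motor domain, differed least among the genes whose groups were separate. The gene *unc-15* had 2299.8, 2267 and 2314 CPM in N2 and 2156, 2200.3 and 1998 CPM in the mutant. The highest mutant library lay 2.92% under the lowest N2 library, a narrow gap beside that of *unc-22*. Its means were 2293 ± 24.3 and 2118 ± 106, with a log2 fold change of -0.11 ± 0.037 (7.64% less).

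Across the 8 genes, the median log2 fold change was -0.28, beside a median of 0.00 over all tested genes, and 8 of 8 values were below 0. Of these, 6 were past the threshold, *myo-3* and *unc-15* being the exceptions, where 3.32% of all tested genes were lower. In 7 of the 8, every mutant library was below every N2 library, which held for 12.9% of tested genes. Because the genes were chosen by this same contrast, nothing is read from these counts. The 8 genes together took 1.05 ± 0.00481% of all counts in N2 and 0.872 ± 0.0504% in the mutant, most of it *unc-54*.

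Because the strains' values are set beside length, the same was done for all tested genes. The median log2 fold change was 0.02 in the 5492 genes under 1000 bases, 0.01 in the 6466 genes of 1000 to 1999 bases and -0.02 in the 2822 genes of 2000 to 3999 bases. It was -0.07 in the 569 genes of 4000 to 7999 bases, -0.14 in the 73 genes of 8000 to 15999 bases and -0.28 in the 10 genes of 16000 bases or more. The longer the class, the lower its median. Of the 195 tested genes of 6000 bases or more, a class that 7 members belong to, 65 were lower in the mutant (33.3%) and 2 were higher (1.03%).

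**Figure D2:**
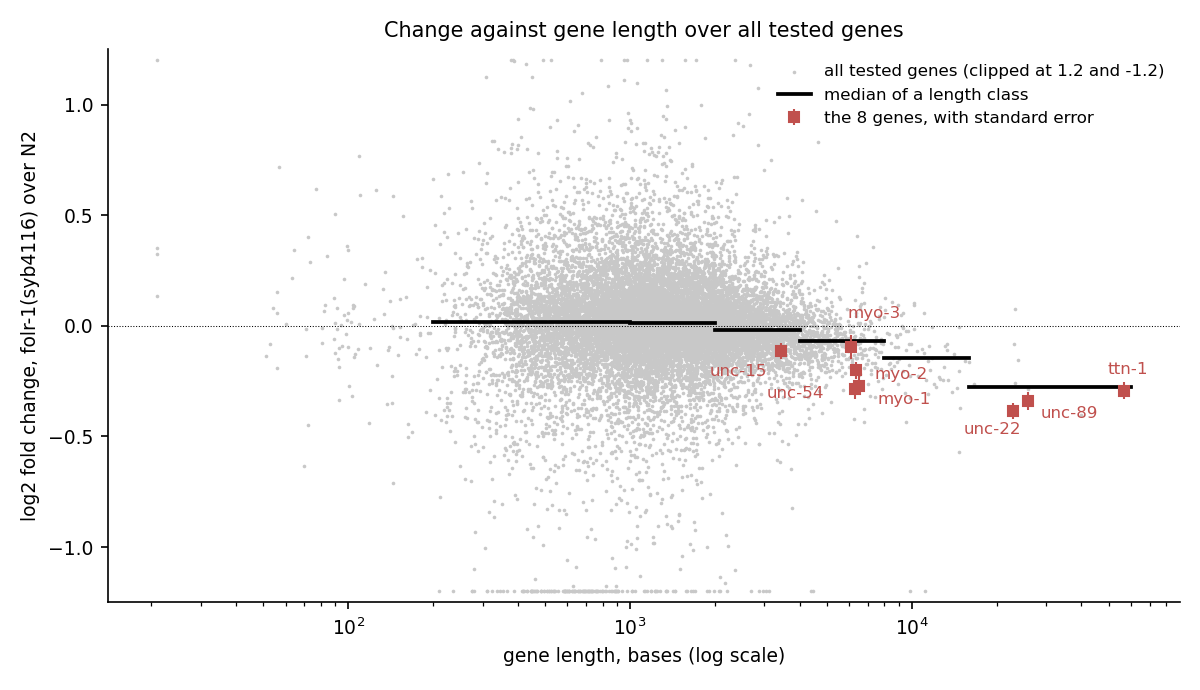
Log2 fold change against gene length in bases on a log axis for all tested genes (grey points, clipped at the ends of the axis), with the median of each length class as a line and the 8 genes as squares with their standard error. The class median falls from 0.02 in the shortest class to -0.28 in the longest, and 8 of the 8 squares lie below the line of their class.

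Each member can be read against its own class. The titin-like genes, between -0.39 and -0.29, lay below the median of the longest class, which was -0.26 in its 7 genes that are not members. For *ttn-1* the distance was less than its standard error. The heavy chains, between -0.29 and -0.10, all lay below the -0.07 of their class, *myo-3* by less than its standard error. Paramyosin, at -0.11, lay below the -0.02 of its class. The heavy chains, nearly the same length as each other, ranged over 0.19 log2 units. The end of that range nearest 0 was *myo-3*, at -0.10 ± 0.054, while *unc-54*, *myo-1* and *myo-2* lay between -0.29 and -0.20.

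The other 7 genes of 16000 bases or more, picked for their length after the values were seen, are given beside them. In the edgeR quasi-likelihood fit, with p-values adjusted over all tested genes, *dig-1*, a giant adhesion protein of the extracellular matrix, fell by 0.40 on the log2 scale (adjusted p = 7.28e-06). The nuclear anchorage gene *anc-1* fell by 0.29 (adjusted p = 0.00494) and the spectraplakin gene *vab-10* fell by 0.26 (adjusted p = 3.11e-04) in the same edgeR fit. The ryanodine receptor gene *unc-68*, the calcium release channel of muscle, fell by 0.26 (adjusted p = 4.73e-04), and *cpna-2* fell by 0.15 (adjusted p = 0.0139), also in edgeR's test. The exceptions were the polyketide synthase gene *pks-1* at 0.07 (adjusted p = 0.620) and the ankyrin gene *unc-44* at -0.08 (adjusted p = 0.206) in the edgeR fit.

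**Figure D3:**
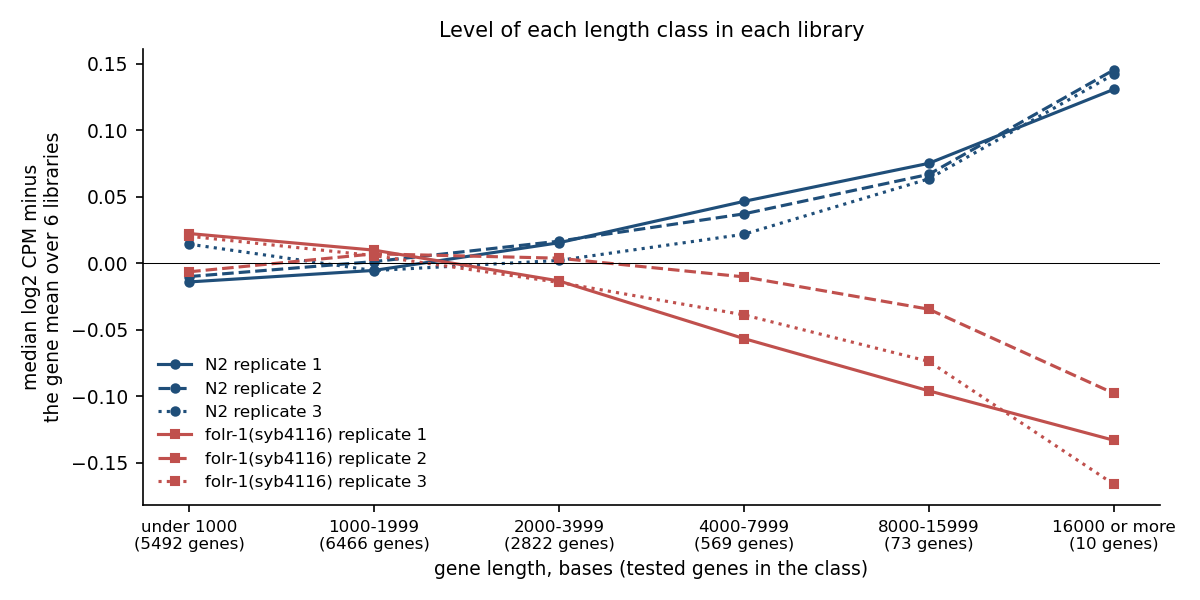
Median deviation of log2 CPM from each gene's mean over the 6 libraries, by length class and library, with one line per library coloured by strain. In the class of 16000 bases or more the N2 libraries lie at 0.13 to 0.15 and the mutant libraries at -0.17 to -0.10, and in the shortest class all 6 lie near 0.

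The trend was also read in single libraries. In the class of 16000 bases or more, N2 had medians of 0.13, 0.15 and 0.14 and the mutant of -0.13, -0.10 and -0.17. Mutant replicate 2 was the nearest to N2 in the class of 8000 to 15999 bases too, at -0.03, against -0.10 and -0.07 in the other mutant libraries. The trend followed the strain in each of the 6 libraries, and whether it came from the strain or from the preparation of its samples cannot be told apart.

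When a smooth trend on log2 length was removed from each library, the members differed in how much was left. The difference in trend between the strains was -0.30 at the length of *ttn-1*, and its log2 fold change after removal was 0.00 ± 0.041. The corrected value was -0.18 ± 0.037 for *unc-22* and -0.12 ± 0.035 for *unc-89*. The longest gene was then level between the strains, and *unc-22* and *unc-89* were still lower. The corrected median of the 10 genes of 16000 bases or more, which include *ttn-1*, *unc-22* and *unc-89* themselves, was -0.06. No non-member of that class was as low as *unc-22*, and only *dig-1* among them was lower than *unc-89*. Among the non-members of that class, *dig-1* stayed at -0.14, *unc-68* at -0.09, *anc-1* at -0.07 and *vab-10* at -0.05. By contrast, *cpna-2*, *unc-44* and *pks-1* were at 0.06, 0.12 and 0.28. No tested gene is longer than *ttn-1*, so its value was corrected at the very end of the trend. The trend was also drawn without the 8 genes, an option chosen after seeing the data. Beyond *dig-1*, the longest gene left at 39869 bases, that trend was held flat. With it, *ttn-1* was at -0.05 and *unc-22* at -0.19. The part of the flat extension in the value of *ttn-1* was not tested.

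For the heavy chains the trend was small, from -0.09 to -0.08, and for 3 of them most of the difference stayed. The corrected log2 fold change was -0.20 ± 0.039 for *unc-54*, -0.18 ± 0.043 for *myo-1* and -0.12 ± 0.039 for *myo-2*. It was -0.02 ± 0.052 for *myo-3* and -0.08 ± 0.035 for *unc-15*. The corrected median of the 8 genes was -0.12, beside 0.00 over all tested genes, and 7 of 8 were below 0. Past the threshold were *unc-22*, *unc-89*, *unc-54* and *myo-1*, 4 of 8, where 2.76% of all tested genes were lower after correction.

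**Figure D4:**
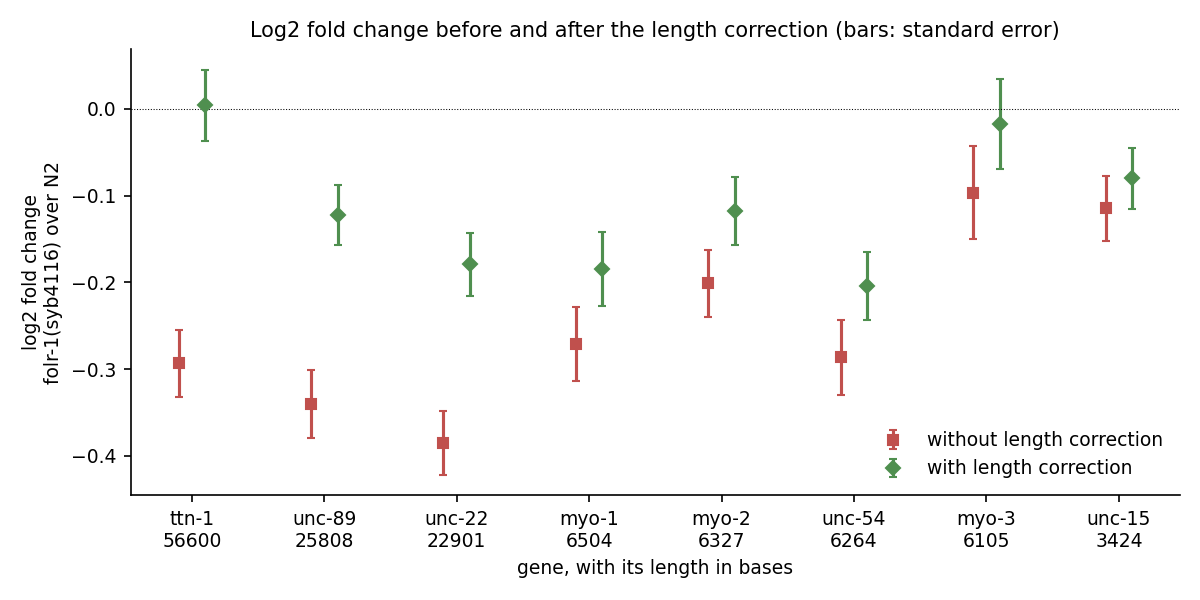
Log2 fold change of each of the 8 genes before and after removal of the length trend, with standard errors. The value of *ttn-1* moves from -0.29 to 0.00, that of *unc-54* from -0.29 to -0.20, and *myo-3* moves nearest to 0 among the heavy chains.

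Ratios of FPKM within a library do not depend on the scaling between libraries, and among the heavy chains they compare genes of near equal length. The FPKM ratio of *unc-54* to *myo-3*, the arm chain to the central chain of the body wall filament, was 11.8, 11.01 and 10.7 in N2 and 9.80, 9.70 and 9.85 in the mutant. These did not overlap, with means of 11.2 ± 0.611 and 9.79 ± 0.0778. The ratio of *unc-54* to *unc-15*, genes of 6264 and 3424 bases, was also lower without overlap, at 1.34 ± 0.0263 in N2 and 1.19 ± 0.0338 in the mutant. As a description of genes chosen by this same contrast, the mutant libraries held less *unc-54* per *myo-3* and per *unc-15* than the N2 libraries did. How often ratios of other genes separate the strains was not tested.

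In the pharynx the ratio of *myo-2* to *myo-1* was 1.39 ± 0.0215 in N2 and 1.46 ± 0.0222 in the mutant, without overlap. Of the FPKM of the 4 heavy chains, *unc-54* made up 83.9 ± 0.311% in N2 and 82.7 ± 0.380% in the mutant, again without overlap. The share of the pharyngeal chains overlapped, with means of 8.58% and 8.82%. Among the giants, the ratio of *unc-22* to *unc-89* overlapped at 1.31 ± 0.0523 and 1.27 ± 0.0752, whereas that of *unc-22* to *ttn-1*, genes of 22901 and 56600 bases, did not, at 7.07 ± 0.223 and 6.64 ± 0.119. The part of length in the ratios of genes of unequal length was not tested.

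The mutant libraries were more variable in these genes. The coefficient of variation over the 3 libraries was larger in the mutant for 8 of 8 members, with a median of 1.84% in N2 and 4.49% in the mutant. Over all tested genes it was larger in the mutant for 50.5%, and over the genes of 6000 bases or more for 63.6%. Mutant replicate 3 was the lowest of the 6 libraries in 7 of the 8 members. Without it, the median log2 fold change of the 8 genes was -0.23.

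The rest of the sarcomere was followed in lists of genes taken by symbol. The essential and regulatory light chains, which bind the neck of each myosin head, had log2 fold changes from 0.02 to 0.08. The log2 fold changes in edgeR's test were 0.02 for *mlc-1* (adjusted p = 0.791) and 0.05 for *mlc-3* (adjusted p = 0.480), and 0 of the 3 light chain genes passed in either direction. The FPKM ratio of the 3 light chains to the 4 heavy chains was 2.67 ± 0.0548 in N2 and 3.34 ± 0.300 in the mutant, without overlap. The light chain genes are at most 1516 bases long, so this ratio also sets short genes against long ones.

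Genes for thick filament assembly and the M-line, 10 in all, gave 0 calls in either direction, with a median of -0.02 and values from -0.14 to 0.08. The most abundant were *unc-45*, the myosin chaperone, at -0.09 (adjusted p = 0.210, edgeR) and *unc-82*, a kinase needed for thick filament organization, at 0.08 (adjusted p = 0.387, edgeR). In the thin filament list, 1 of 20 tested genes fell, 2 rose and the median was 0.01. The troponin I gene *tni-3* fell by 0.39 on the log2 scale (adjusted p = 2.07e-04, edgeR) and is 965 bases long. The cofilin gene *unc-60* rose by 0.15 (adjusted p = 0.0179, edgeR) and the troponin I gene *tni-1* by 0.14 (adjusted p = 0.0378, edgeR). The 4 actin genes of this list are near-identical copies, so their single values are uncertain.

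Dense bodies anchor thin filaments to the membrane and basement membrane. Of the 15 genes for these structures, 2 fell and 0 rose, with a median of -0.08 and 15 of 15 values below 0. The genes that fell were the list's longest. Kettin, *ketn-1*, a titin-related protein of the I-band with 14518 bases, fell from 758 ± 13.7 to 624 ± 37.3 CPM (log2 fold change -0.28, adjusted p = 3.66e-04, edgeR). Perlecan, *unc-52*, with 11584 bases, fell from 763 ± 21.4 to 665 ± 40.0 CPM (log2 fold change -0.20, adjusted p = 0.00806, edgeR). After removal of the length trend, 0 of the 15 passed as lower.

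Among 8 genes of excitation and calcium release, *unc-68* alone fell, with a median of -0.07 for the list. Myosin heavy chains that do not build sarcomeres were compared as relatives of the members. Of 10 tested, 2 fell and 0 rose, both of them nonmuscle myosins that drive contraction of epithelia and dividing cells. The gene *nmy-1* fell from 891 ± 9.23 to 769 ± 30.9 CPM (log2 fold change -0.21, adjusted p = 0.00143, edgeR) and *nmy-2* from 391 ± 8.28 to 335 ± 6.89 CPM (log2 fold change -0.22, adjusted p = 8.06e-04, edgeR). Both also passed after removal of the length trend, at -0.13 and -0.14 (adjusted p = 0.0280 and 0.0357, edgeR).

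In all 6 lists, 66 genes were tested, of which 6 fell, 2 rose and the median was -0.05. Over all tested genes, 3.32% were lower and 3.64% were higher. Of the 11 genes of 6000 bases or more, 5 fell and 0 rose, with a median of -0.12. Among all tested genes of that length, 33.3% were lower and 1.03% were higher, with a median of -0.11. Of the 55 shorter genes, 1 fell and 2 rose, with a median of -0.04. After removal of the length trend 7 of the 66 passed: *tni-3*, *nmy-1* and *nmy-2* as lower and *unc-60*, *unc-87*, *itr-1* and *hum-4* as higher. Over all 15432 tested genes, 426 were then lower and 517 higher.

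**Figure D5:**
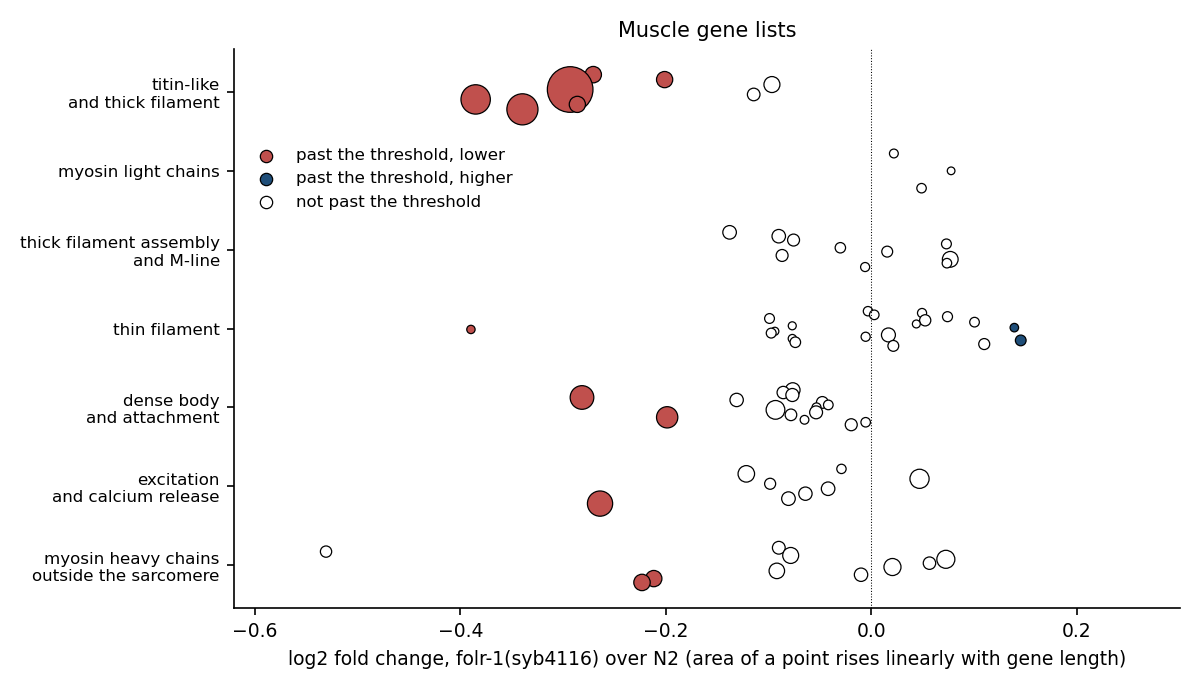
Log2 fold change of the 8 genes and of each tested gene of the 6 further lists, with the area of a point rising linearly with gene length and filled points past the adjusted p threshold of 0.05. The filled points below 0 are mostly large, and light chain and M-line genes lie near 0 with 0 calls.

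Markers of the tissues that hold these filaments were detected in every library, with none at 0. The 8 body wall muscle markers were transcription factors and acetylcholine receptor subunits. Their summed CPM was between 54.1 and 55.1 in N2 and between 51.3 and 56.9 in the mutant, and 0 of 8 passed in either direction. These genes were low, with N2 means from 2.27 CPM (*lev-8*) to 15.6 CPM (*unc-120*). The standard errors of their log2 fold changes, from 0.085 to 0.178, were larger than those of the members. The 8 pharynx markers, of which *tnt-4*, *tnc-2* and *tni-4* are also in the thin filament list, summed to 305 to 317 CPM in N2 but to 269 to 295 CPM in the mutant, and 1 fell, the transporter gene *pgp-14* (log2 fold change -0.32, adjusted p = 6.24e-04, edgeR). The 7 intestine markers summed to between 6211 and 6359 CPM in N2 and between 6906 and 7174 CPM in the mutant, and 3 rose: *asp-1* (0.21, adjusted p = 2.39e-04), *ifb-2* (0.18, adjusted p = 0.0186) and *act-5* (0.13, adjusted p = 0.0405), all on the log2 scale in edgeR's test. The pharynx sum went from a mean of 311 to 283 CPM, and *pgp-14* alone from 107 to 85.4 CPM. Most of the fall in the pharynx sum was therefore in that gene. The intestine sum went from a mean of 6279 to 7044 CPM, and *asp-1* alone from 3419 to 3964 CPM. The body wall sum overlapped between the strains. The part of these sums in the values of the 8 genes was not tested.

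Outside the group, the genes whose profile over the 6 libraries was most like the mean of the 8 members were *mdh-1* (F46E10.10), F28B4.3, *rhgf-1*, *lys-8* and *ego-1*. Their Pearson r with that mean was between 0.992 and 0.996 over 6 libraries, among the 12009 genes that had 50 counts or more in each library. The member mean on the log2 scale was 0.12, 0.13 and 0.13 in N2 and -0.10, -0.09 and -0.19 in the mutant, so a high r mostly reflects the difference between the strains. The sizes differed widely: F28B4.3, with 6747 bases, went from 273 to 210 CPM, whereas *mdh-1*, with 1205 bases, went from 395 to 383 CPM.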

How the data were processed

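RNA of whole L4 larvae was sequenced by the authors from poly-A RNA, with 3 libraries per strain. Per the submitters' processing notes, fastp, HISAT2 and featureCounts were used with WBcel235, and the versions and the counting strand were not given in the sources used here. The authors deposited raw counts per gene and FPKM values. Gene length was recovered from the ratio of count to FPKM, which gives relative lengths. These were scaled so that the median gene matched the length of its merged exons in the annotation. After this scaling, 62.1% of 22964 genes with an annotated length were within 5% of it.

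Counts were filtered with filterByExpr, scaled with TMM and fitted in R 4.3.3 with edgeR 4.0.16 (glmQLFit and glmQLFTest, strain as the only term), with Benjamini-Hochberg adjustment over 15432 genes and a threshold of 0.05. The SE is that of the fitted log2 fold change, and log2 CPM values used a prior count of 2. For the length correction, a lowess trend on log2 length (span 0.3) was removed from each library. No correction for GC content was made. The procedure was also run on simulated counts with a single dispersion and, where a length trend was simulated, one linear in log2 length. The outcome is not reported here. Alternatives were DESeq2 1.42.0, limma 3.58.1 (voom, and FPKM with pseudocounts of 1 and 0.1), RLE factors, other filters, a block for replicate number, leaving out each library, and a stricter threshold. Summaries and plots were made in Python 3.11.15 (matplotlib 3.10.9).

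The members and the lists were chosen with earlier results of these data known. Named genes were the members, *folr-1*, in each list the 2 lower and 2 higher genes with the smallest adjusted p or, with none past the threshold, its 2 genes of highest CPM, and the 5 genes most like the members. The genes of 16000 bases or more, the genes called after length correction and all 3 intestine markers called were named after their values were seen. Of the lists, *tmd-1*, *hum-9* and *opt-2* were not matched to the table. SDs are over the biological replicates of a strain.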

Additional observations from a re-analysis of the deposited data

How the results depend on the processing

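Of 128 values of the members under 16 alternatives, 126 were below 0, and the exceptions were *ttn-1* under the length correction (0.00404) and under the length correction with the replicate block (0.0032). With the trend fitted without the members, chosen after seeing the data and held flat beyond the longest gene left, *ttn-1* was at -0.045. The median of the 8 members was -0.12 with the length correction, with and without the replicate block, and between -0.30 and -0.23 when a library was left out, lowest without mutant replicate 1 and highest without mutant replicate 3. Of the 8 members, 6 were past the threshold, beside 512 of 15432 tested genes lower. With the length correction and replicate block there were 3, beside 342 genes lower. There were 5 on each FPKM scale, and 7 with limma-voom, beside 497 genes lower. At the stricter threshold (adjusted p under 0.005 and log2 fold change beyond 1) there were 0. No member could pass it, as the furthest from 0 was at -0.39. Genes lower in the mutant numbered 268 and 274 on log2(FPKM + 1) and log2(FPKM + 0.1), 138 at the stricter threshold and 337 to 470 without a library. Genes higher numbered 310 and 309 on the same scales, 894 without a filter, 4 at the stricter threshold and 335 to 529 without a library, fewest without N2 replicate 2. Genes past the threshold in the other muscle lists numbered 8, against 5 on each FPKM scale, 4 with the length correction and replicate block, 0 at the stricter threshold and 5 to 8 without a library, fewest without mutant replicate 3. Whether samples of the same replicate number were handled together is not stated in the sources used here. Deviations of same-numbered libraries correlated at -0.023, -0.045 and 0.013, and those of different-numbered libraries at -0.018 to 0.041. The replicate block alone gave 406 genes lower and 459 higher. Causes of these shifts were not tested.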

Other observations

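Markers of other tissues in the same whole animals were summed beside the muscle genes. The 8 epidermis markers summed to 527 to 564 CPM in N2 and 567 to 602 CPM in the mutant, and 1 rose, the cuticle collagen gene *rol-6* (log2 fold change 0.33, adjusted p = 0.00471, edgeR). The 8 neuron markers summed to 387 to 389 CPM and 382 to 396 CPM, and the 8 germline markers to 2158 to 2227 CPM and 2117 to 2134 CPM, with 0 calls in either list. The 8 sperm markers summed to 393 to 396 CPM in N2 and 366 to 378 CPM in the mutant, and 2 fell: *fer-1*, a ferlin gene of 6245 bases (log2 fold change -0.42, adjusted p = 2.25e-04, edgeR), and *spe-9* (-0.41, adjusted p = 0.0363, edgeR).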
